A study of Mus musculus with 24 samples.

Results

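The 9 genes described here, Hnf4a, Foxa1, Foxa2, Foxa3, Cebpa, Cebpb, Onecut1, Prox1 and Nr5a2, code for transcription factors that set up and maintain the hepatocyte, the main cell of the liver. They were taken by symbol from a table of 37583 genes in mouse liver RNA, and all 9 were among the 16471 genes with enough signal to test. The livers fall into 4 groups of 3 mice, all 8.5 months old and labelled C57BL6/CBA. The growth protocol names the strain without the CBA part, and the sex of the mice is not given. DEN_KO livers carried the Smyd3 knockout and came from mice given diethylnitrosamine (DEN), a liver carcinogen, as a single intraperitoneal dose of 25 mg/kg. DEN_WT livers were wild type and had the same dose, KO livers carried the knockout and had no DEN, and WT livers had neither. The knockout is a germline gene trap in an intron of Smyd3 that acts in every tissue, so neither hepatocytes nor other liver cells carried an intact gene. Smyd3 is a lysine methyltransferase that is found at chromatin. Chromatin immunoprecipitation from DEN-treated livers gave 1 list of Smyd3 peaks (DEN_WT) and 1 list each of regions with trimethylated lysine 4 of histone H3, H3K4me3 (DEN_KO and DEN_WT), each list standing for 2 replicates. H3K4me3 marks the starts of active genes.

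The values are read counts that the authors had normalized and rounded, and they sum to between 22320634 and 28973396 per library; the number of reads behind them is not known here. Smyd3 itself had 12, 3 and 8 in the DEN_KO libraries and 57, 71 and 74 in the DEN_WT libraries, and 29, 17 and 22 in the KO libraries against 79, 89 and 59 in the WT libraries. In each pair all knockout livers lay below all wild type livers, and the difference passed the threshold in DEN_KO against DEN_WT livers (log2 fold change -3.13, adjusted p = 0.00018 by limma) but not in KO against WT livers (-1.71, adjusted p = 0.065 by limma). Some Smyd3 reads thus remained in the knockout livers, and fewer in DEN_KO than in KO livers (-1.58, adjusted p = 0.022 by limma). Hepatocyte markers summed to between 2143574 and 5583358 per library. Markers of the exocrine pancreas other than Cela1 summed to at most 26.

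Hepatocyte transcription factors work as a network in which each member binds the control regions of many of the others. Foxa1, Foxa2 and Foxa3 are forkhead proteins that can bind closed chromatin and open it, and Foxa1 and Foxa2 act early in liver specification. Hnf4a is a nuclear receptor that binds a very large share of the active hepatocyte genes, and its loss in adult liver lowers genes of lipid transport and coagulation. Cebpa and Cebpb are leucine zipper proteins that bind the same DNA element. Cebpa goes with the resting, metabolically active hepatocyte, while Cebpb is induced by cytokines, in the acute phase response and in liver regeneration. Onecut1, also called Hnf6, acts in hepatocytes and bile duct cells, Prox1 is needed for hepatoblast migration and is also a factor of lymphatic endothelium, and Nr5a2 is a nuclear receptor of bile acid and cholesterol genes.

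Because the results turn on Hnf4a, Cebpb and Onecut1, the 250 bases before their RefSeq start sites (build GRCm38.p6, gene strand) are shown. All 9 genes matched the RefSeq promoter table, with 14 starts between them. Hnf4a has 2 starts that lie 40298 bases apart. In mammals the upstream one, called P2, is used in fetal liver and in pancreatic islets, and the downstream one, called P1, in adult liver. Capitals mark exact matches, on either strand, to 1 of 9 short motifs that were searched for. These were CCCTCC, a sequence that Smyd3 has been reported to bind, GTTAAT of Hnf1 proteins, CAAAGTCCA of Hnf4a, TNTTTAC of Foxa proteins, TTGCNNAA of C/EBP proteins, ATTGAT of Onecut proteins, CAAGGTCA of Nr5a2, TGACG of CREB and ATF proteins, and the TATA element TATAAA.

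Hnf4a upstream start (chr2:163506607-163506856, plus strand): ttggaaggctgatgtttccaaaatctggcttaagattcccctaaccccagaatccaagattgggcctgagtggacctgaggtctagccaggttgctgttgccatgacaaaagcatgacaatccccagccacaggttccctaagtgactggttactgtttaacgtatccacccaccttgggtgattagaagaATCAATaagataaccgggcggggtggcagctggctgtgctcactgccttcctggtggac

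Hnf4a downstream start (chr2:163546905-163547154, plus strand): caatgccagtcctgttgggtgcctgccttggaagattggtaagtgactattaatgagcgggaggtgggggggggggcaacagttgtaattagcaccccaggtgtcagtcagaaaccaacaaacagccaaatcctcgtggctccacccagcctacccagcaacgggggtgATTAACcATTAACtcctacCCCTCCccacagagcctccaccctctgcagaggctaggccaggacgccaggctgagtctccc

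Cebpb start (chr2:167688665-167688914, plus strand): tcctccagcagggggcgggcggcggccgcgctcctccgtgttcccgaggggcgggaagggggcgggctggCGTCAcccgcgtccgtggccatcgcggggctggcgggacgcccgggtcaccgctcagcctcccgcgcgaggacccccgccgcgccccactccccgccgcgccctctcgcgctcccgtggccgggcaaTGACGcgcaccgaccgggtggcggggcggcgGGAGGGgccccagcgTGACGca

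Onecut1 start (chr9:74861671-74861920, plus strand): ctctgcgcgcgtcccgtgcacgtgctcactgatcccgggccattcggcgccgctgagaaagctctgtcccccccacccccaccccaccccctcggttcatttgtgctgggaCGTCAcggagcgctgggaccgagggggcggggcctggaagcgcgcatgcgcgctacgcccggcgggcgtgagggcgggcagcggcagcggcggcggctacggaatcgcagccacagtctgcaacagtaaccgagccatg

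The 250 bases before the downstream Hnf4a start held GTTAAT at 2 places on the minus strand, read as ATTAAC 69 to 74 and 76 to 81 bases before the start, and CCCTCC 57 to 62 bases before it. Of 32851 mouse promoters of the same length, 6.4% held GTTAAT and 35.2% held CCCTCC. The upstream Hnf4a start held only an ATTGAT match, a motif found in 6.7% of promoters. The Cebpb promoter held TGACG at 3 places and CCCTCC at 1, and the Onecut1 promoter held TGACG at 1. TGACG was found in 17.8% of promoters. Among the other members, CCCTCC was also matched at Foxa1, Foxa2, Foxa3, Prox1 and Nr5a2. GTTAAT was matched at Foxa2 and Nr5a2 as well, and ATTGAT at Foxa2. Foxa3 and Cebpa had TATAAA on the plus strand, 31 to 36 and 25 to 30 bases before the start. Foxa2, Prox1 and Nr5a2 had TATAAA on the minus strand, and Foxa1 had a TNTTTAC match. TATAAA was found in 12.4% of promoters and TNTTTAC in 10.9%. TTGCNNAA, in 9.6% of promoters, was matched at 1 of the Nr5a2 starts. Neither CAAAGTCCA (0.4%) nor CAAGGTCA (1.3%) was found in any of the members' windows. A match is a run of letters and was not tested as a binding site.

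**Figure D1:**
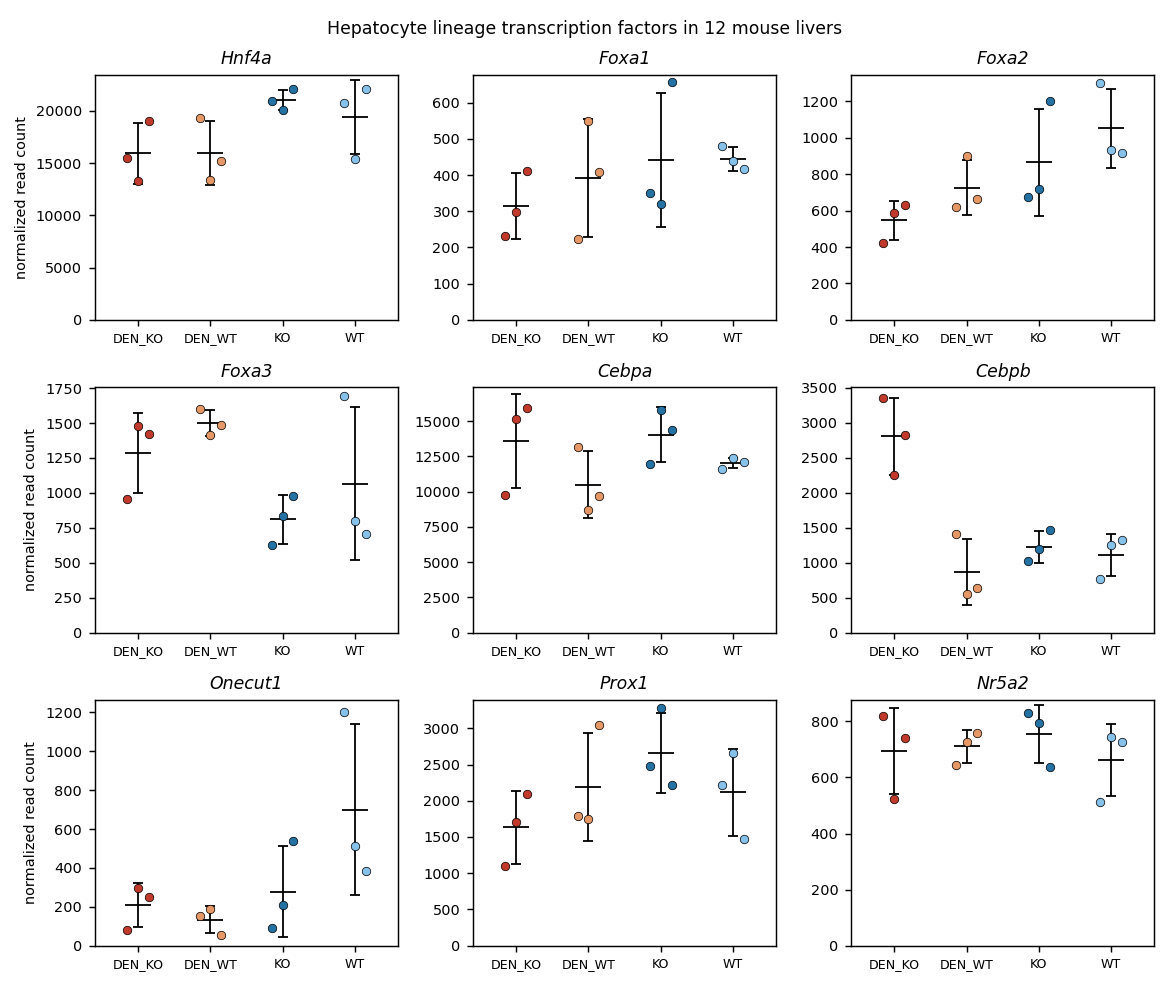
Normalized read count (vertical axis, linear from 0) of each of the 9 factors in each of 12 livers by group; points are libraries, in label order from left to right, and bars are the mean and SD of 3. The 3 DEN_KO livers lie above all others for Cebpb, and the 3 DEN_WT livers lie below all 3 WT livers for Onecut1.

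The first question the design puts is what DEN did in wild type liver. Of the 9 factors 1 changed, Onecut1, which fell in DEN_WT livers. Onecut1 had 152, 190 and 57 normalized reads in the DEN_WT libraries, against 1205, 511 and 384 in the WT libraries. The groups did not overlap, and WT replicate 1 had more than the other WT libraries put together. In limma the log2 fold change was -2.38 ± 0.67 (SE, 3 livers in each group), 5.2-fold lower, with an adjusted p of 0.017. Across all genes 13.5% were called lower and 16.1% higher in this comparison, so 1 of 9 is no more than the share of the whole table. The call rested on single livers. Without WT replicate 1, the highest, the log2 fold change was -1.90 and the adjusted p 0.071, and without DEN_WT replicate 3, the lowest, they were -1.86 and 0.077.

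With the Smyd3 knockout, Onecut1 passed the threshold neither in DEN_KO against DEN_WT nor in KO against WT livers. The DEN_KO libraries had 79, 294 and 250 and the KO libraries 88, 210 and 537. In KO against WT livers the log2 fold change was -1.52 ± 0.67 with an adjusted p of 0.31, and in DEN_KO against KO livers it was -0.26 ± 0.67 (adjusted p = 0.83 by limma). KO replicate 3 lay within the WT range and the other KO libraries lay below it. The difference between the DEN effects, 2.12 ± 0.95, did not pass the threshold with all livers (adjusted p = 0.14) and did so without KO replicate 3 (2.78, adjusted p = 0.047). Onecut1 lies inside a long noncoding gene, RP23-342N19.2, that was listed at 0 in all 12 libraries. Another noncoding gene that ends just before it, Gm16551, had 263, 365 and 311 in DEN_WT livers, against 1578, 829 and 435 in WT livers. WT replicate 1 was again the highest library, and the difference did not pass the threshold (log2 fold change -1.41 ± 0.56, adjusted p = 0.073 by limma).

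Onecut1 is also expressed by bile duct cells, and in bulk tissue fewer cells of a type and less RNA per cell cannot be told apart. The summed level of 10 bile duct markers was 9800 to 16720 in DEN_WT livers, against 924 to 1150 in WT livers, nearly all of it Spp1. Spp1, a secreted phosphoprotein that tumour cells and macrophages also make, had a log2 fold change of 4.15, and the tight junction gene Cldn4 of 2.6. The other 9 markers summed to 271 to 493 in DEN_WT livers and 272 to 367 in WT livers. Of 12 hepatocyte markers, 3 were called higher and 4 lower, where 16.1% of all tested genes were called higher and 13.5% lower. The part of cell makeup in the Onecut1 difference was not tested.

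Onecut2, the close relative of Onecut1, moved the same way with a smaller spread. It averaged 481 ± 179 in DEN_WT livers and 2300 ± 208 in WT livers (SD, n = 3 each). Its log2 fold change was -2.33 ± 0.25 with an adjusted p of 2.6e-05 in limma. DEN_KO livers had 1410, 1482 and 2009, all above the DEN_WT livers' 557, 277 and 609. That difference was 1.82 ± 0.25 (adjusted p = 0.00023), whereas for Onecut1 the same comparison gave 0.60 ± 0.67 (adjusted p = 0.52). Whether the genes differ from each other in this was not tested.

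The second question is what loss of Smyd3 did in livers that had received DEN. Here too 1 of the 9 factors changed, Cebpb, which was higher in DEN_KO livers. Cebpb had 3346, 2248 and 2821 normalized reads in the DEN_KO libraries, against 1404, 549 and 642 in the DEN_WT libraries. All DEN_KO livers lay above all DEN_WT livers. The log2 fold change was 1.81 ± 0.32, 3.5-fold, with an adjusted p of 0.00099 in limma, and the call held under all 19 other settings and left-out libraries (1.54 to 2.22). Among all genes 16.4% were called higher and 17.4% lower in this comparison, so the count of 1 in 9 is again not above that of the whole table.

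The KO libraries had 1018, 1198 and 1470 Cebpb reads and the WT libraries 767, 1252 and 1321. These groups overlapped and lay below the DEN_KO range. Cebpb was higher in DEN_KO than in KO livers (log2 fold change 1.19 ± 0.32, adjusted p = 0.024), the only member of the 9 called in that comparison, where 8.91% of all genes were called higher and 6.02% lower. That call was lost without DEN_KO replicate 1 (1.05, adjusted p = 0.079), DEN_KO replicate 3 (1.17, adjusted p = 0.069), KO replicate 1 (1.06, adjusted p = 0.086) or KO replicate 2 (1.18, adjusted p = 0.062). In DEN_WT against WT livers the difference was -0.45 ± 0.32 (adjusted p = 0.30), and -0.87 with an adjusted p of 0.025 without DEN_WT replicate 1, the highest DEN_WT liver.

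The test of the difference itself, the DEN effect in Smyd3-deficient livers less that in wild type livers, gave 1.64 ± 0.45 for Cebpb (adjusted p = 0.025 by limma). Cebpb was the only 1 of the 9 past the threshold, and 8.73% of all genes were called higher and 7.83% lower in this test. The adjusted p was 0.051 when the spread was moderated without a trend. It ranged from 0.003 to 0.062 over the alternatives, and the call was lost when DEN_KO replicate 1 or 3, KO replicate 1, DEN_WT replicate 2 or 3, or WT replicate 2 or 3 was left out.

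Cebpb is also expressed by macrophages and neutrophils. The summed level of 9 macrophage markers was, from the lowest to the highest liver, 8971, 10300 and 12401 in DEN_KO, against 2979, 7103 and 10883 in DEN_WT. These ranges overlap. The sums were 6271 to 7255 in KO livers and 5241 to 5417 in WT livers, all below the DEN_KO livers. The median log2 fold change of the 9 markers was 0.66 in DEN_KO against DEN_WT livers and 0.72 in DEN_KO against KO livers. Over all tested genes it was -0.055 and 0.024. Only 1 of the 9 markers, the Kupffer cell lectin Clec4f, was called higher in DEN_KO against DEN_WT livers (log2 fold change 1.15), where 16.4% of all tested genes were. Neutrophil markers summed to 32 to 85 in DEN_KO livers, 10 to 70 in DEN_WT livers, 7 to 13 in KO livers and 12 to 22 in WT livers. Their part in the Cebpb difference was not tested. The single Cebpb exon overlaps the start of Tmem189 on the other strand, and whether reads were counted by strand is not given in the sources used here. Tmem189 had 261, 282 and 339 in DEN_KO livers and 289, 162 and 223 in DEN_WT livers, a difference of 0.42 ± 0.34 (adjusted p = 0.37).

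**Figure D2:**
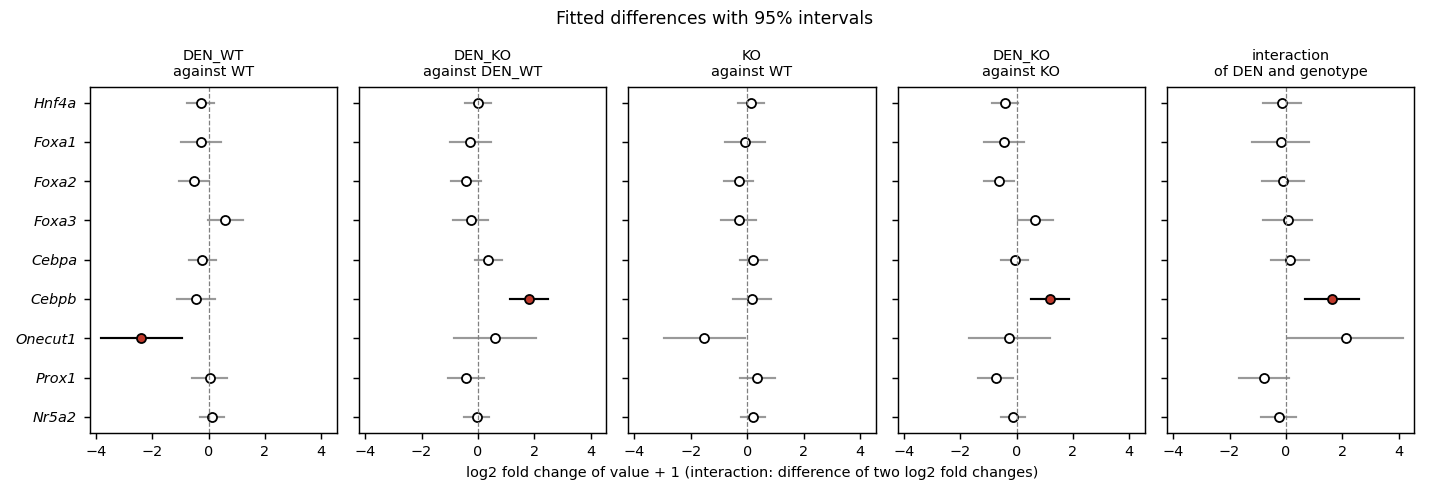
Log2 fold change of value + 1 (horizontal axis) of the 9 factors in each comparison, with the 95% interval of each; filled points passed the threshold. The last panel is DEN_KO against KO less DEN_WT against WT. Filled points are Onecut1 in DEN_WT against WT and Cebpb in 3 panels.

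Cebpa, the relative of Cebpb, passed the threshold in none of the 5 comparisons. It had 9755, 15120 and 15918 in DEN_KO livers, 13156, 8675 and 9660 in DEN_WT livers, 11925, 15788 and 14349 in KO livers, and 11616, 12371 and 12093 in WT livers. DEN_KO replicate 1, the lowest of its group, lay within the DEN_WT range. In DEN_KO against DEN_WT livers the log2 fold change was 0.36 with a 95% interval of -0.12 to 0.85, which leaves a change of either sign possible.

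The balance of Cebpb to Cebpa within a library was formed after the values had been seen and is given without a test. The log2 ratio was -1.54, -2.75 and -2.50 in DEN_KO livers and -3.23, -3.98 and -3.91 in DEN_WT livers. KO livers had -3.55, -3.72 and -3.29 and WT livers -3.92, -3.30 and -3.19. All DEN_KO livers lay above the other 9.

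Hnf4a was not called in any comparison, and its values lay closer together than those of most members. It had 15517, 13251 and 19004 in DEN_KO livers, 19299, 13368 and 15243 in DEN_WT livers, 20957, 20128 and 22080 in KO livers, and 20737, 15389 and 22133 in WT livers. In DEN_KO against KO livers the log2 fold change was -0.42 ± 0.22 (adjusted p = 0.21 by limma). DEN_KO against DEN_WT livers gave 0.00, with a 95% interval of -0.47 to 0.46 on the log2 scale.

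An antisense gene that overlaps Hnf4a, and the Hnf4a paralog Hnf4g on chromosome 3, differed widely between groups. The antisense gene 0610008F07Rik starts inside Hnf4a and runs out past the annotated Hnf4a start on the other strand (chr2:163319543-163367456 in mm9). It had 141, 90 and 111 in DEN_KO livers, 28, 2 and 24 in DEN_WT livers, 198, 192 and 84 in KO livers, and 142, 161 and 175 in WT livers. The DEN_WT livers lay below all others. The log2 fold change was -3.62 ± 0.66 in DEN_WT against WT livers (adjusted p = 0.0012) and 3.13 ± 0.66 in DEN_KO against DEN_WT livers (adjusted p = 0.0031), which was 2.07 without DEN_WT replicate 2. Without strand in the counting, reads of the 2 genes cannot be told apart where they overlap. Hnf4g, the paralog of Hnf4a, was looked at after its values had been seen. It had 19, 101 and 45 in DEN_WT livers, against 3, 5 and 4 in WT livers (log2 fold change 3.20 ± 0.69, adjusted p = 0.0037). DEN_KO livers had 16, 5 and 2 and KO livers 6, 2 and 5, and DEN_KO against DEN_WT gave -2.75 ± 0.69 (adjusted p = 0.0084). These low values carry a large error.

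**Figure D3:**
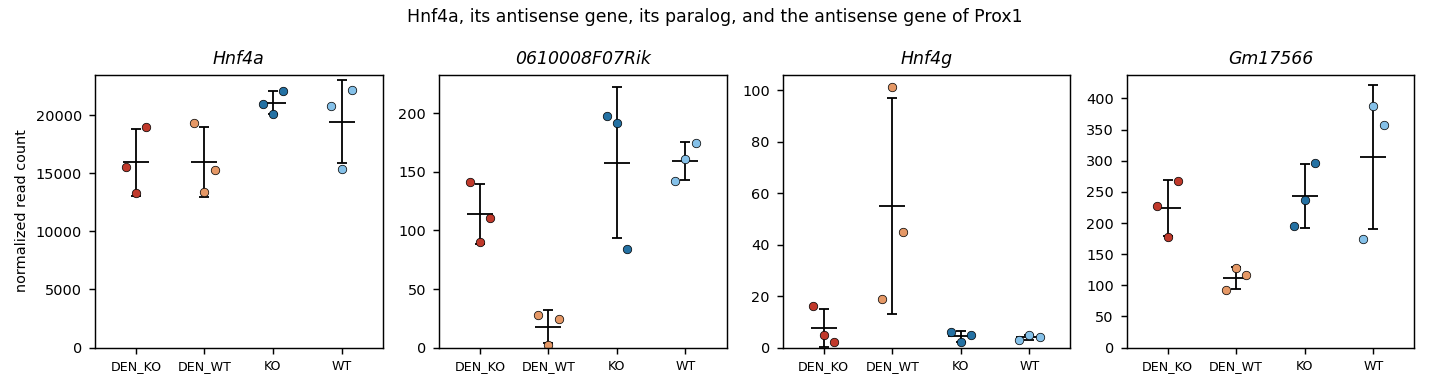
Normalized read count (vertical axes, linear from 0, each with its own scale) of Hnf4a, of its antisense gene 0610008F07Rik, of its paralog Hnf4g and of Gm17566, antisense at the Prox1 start; points are libraries by group, bars the mean and SD of 3. The antisense genes are lowest and Hnf4g is highest in DEN_WT livers, while Hnf4a overlaps between DEN_KO and DEN_WT livers.

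The 3 Foxa genes passed the threshold in no comparison with all livers, and the fold changes of Foxa2 and Foxa3 with DEN had opposite signs. Foxa2 had 422, 586 and 629 in DEN_KO livers, 619, 898 and 661 in DEN_WT livers, 674, 717 and 1202 in KO livers, and 1303, 934 and 918 in WT livers. The log2 fold change was -0.53 ± 0.25 in DEN_WT against WT livers (adjusted p = 0.12 by limma) and -0.63 ± 0.25 in DEN_KO against KO livers (adjusted p = 0.10). Foxa1 had 231, 298 and 412 in DEN_KO livers, 222, 548 and 408 in DEN_WT livers, 350, 319 and 656 in KO livers, and 481, 438 and 416 in WT livers, and its groups overlapped in every comparison.

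Foxa3, the Foxa gene of the mature liver, had 953, 1482 and 1421 in DEN_KO livers, 1601, 1412 and 1487 in DEN_WT livers, 625, 833 and 977 in KO livers, and 1696, 800 and 706 in WT livers. WT replicate 1 stood at the level of the DEN_WT livers and the other WT livers below it. The log2 fold change was 0.60 ± 0.29 in DEN_WT against WT livers (adjusted p = 0.13) and 0.66 ± 0.29 in DEN_KO against KO livers (adjusted p = 0.14). Without WT replicate 1 both passed the threshold, at 0.99 (adjusted p = 0.0063) and 0.66 (adjusted p = 0.042). The difference between the DEN effects was 0.06 with an interval of -0.82 to 0.94. WT replicate 1 was also the highest WT library for Foxa1, Foxa2 and Onecut1 and the lowest for Cebpa, Cebpb and Nr5a2.

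Within a library the log2 ratio of Foxa3 to Foxa2, formed after the values had been seen, was 1.17, 1.34 and 1.17 in DEN_KO livers and 1.37, 0.65 and 1.17 in DEN_WT livers. It was -0.11, 0.22 and -0.30 in KO livers and 0.38, -0.22 and -0.38 in WT livers. All 6 DEN-treated livers lay above all 6 untreated ones, WT replicate 1 included. No test is given for this ratio.

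**Figure D4:**
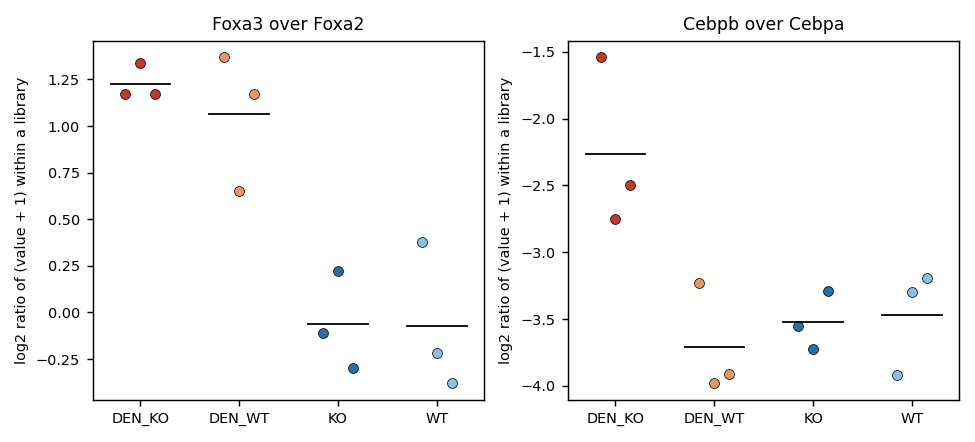
Log2 ratio of value + 1 of Foxa3 over Foxa2 (left) and of Cebpb over Cebpa (right) within each library by group; points are libraries and lines are group means. The ratio of Foxa3 to Foxa2 is above 0.6 in all DEN-treated livers and below 0.4 in all untreated ones, and the ratio of Cebpb to Cebpa is highest in the 3 DEN_KO livers.

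Prox1 had 1102, 1700 and 2092 in DEN_KO livers, 1785, 1742 and 3049 in DEN_WT livers, 2479, 3279 and 2224 in KO livers, and 2213, 2666 and 1466 in WT livers. It passed the threshold in no comparison, and in DEN_KO against KO livers the log2 fold change was -0.73 ± 0.29 (adjusted p = 0.10 by limma). Gm17566, a noncoding gene that starts on the other strand at the Prox1 start, had 92, 127 and 116 in DEN_WT livers, below the 174, 388 and 357 of WT livers (log2 fold change -1.38 ± 0.29, adjusted p = 0.0033). In DEN_KO against DEN_WT livers it gave 0.99 ± 0.29 (adjusted p = 0.019), a call lost without DEN_KO replicate 1 or 3 or DEN_WT replicate 1 (0.86 to 0.97). Markers of lymphatic endothelium, which also expresses Prox1, summed to 2300 to 3620 in DEN_WT livers, against 1468 to 1807 in WT livers. Nearly all of this was Reln, Flt4 and Lyve1, and Reln is also counted here as a stellate cell marker and Lyve1 as an endothelial one. The other markers were low and overlapped. Pdpn had 17, 3 and 11 in DEN_WT and 17, 9 and 2 in WT livers, and Mmrn1 20, 1 and 10 against 6, 8 and 11. Ccl21a had 9, 0 and 11 against 7, 13 and 34. The part of these cells in the Prox1 values was not tested.

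Nr5a2 was the steadiest of the 9, with gene-centred log2 values that varied by a root mean square of 0.221 over the 12 livers. It had 819, 524 and 741 in DEN_KO livers, 645, 728 and 759 in DEN_WT livers, 831, 796 and 636 in KO livers, and 514, 743 and 728 in WT livers. The groups overlapped in every comparison and no log2 fold change lay beyond 0.25 in size. In DEN_KO against KO livers its 95% interval ran from -0.57 to 0.30.

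In untreated livers loss of Smyd3 moved none of the 9 factors past the threshold of limma, and 1.16% of all genes were called. At an unadjusted p under 0.05 there were 2492 genes, Onecut1 among them. The number of genes called in this comparison, 191 with all livers, ran from 62 to 555 when a library was left out. Over the members the median log2 fold change was -0.27 in DEN_WT against WT, -0.05 in DEN_KO against DEN_WT, 0.13 in KO against WT and -0.26 in DEN_KO against KO, beside -0.02, -0.06, -0.02 and 0.02 over all tested genes.

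The genes whose profile over the 12 livers came closest to that of Cebpb were Hspa2, a heat shock protein gene, and Txn1, the gene of thioredoxin. Their gene-centred log2 values differed from those of Cebpb by a root mean square of 0.237 and 0.247, where Cebpb itself varied by 0.768. Txn1 had 1937, 1731 and 1693 in DEN_KO livers, 637, 359 and 371 in DEN_WT livers, 498, 666 and 807 in KO livers, and 499, 662 and 515 in WT livers. Closest to Onecut1 were E2f8, a cell cycle factor of the E2F family (0.455), and Shisa7 (0.635, at values of 3 to 40), where Onecut1 varied by 1.219. E2f8 had 35, 191 and 114 in DEN_KO livers, 103, 89 and 47 in DEN_WT livers, 49, 72 and 169 in KO livers, and 329, 206 and 214 in WT livers.

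Of 30 other liver transcription factors that were tested, 4 rose and 11 fell in DEN_WT against WT livers, with a median log2 fold change of -0.33, where 16.1% of all tested genes were called higher and 13.5% lower, with a median of -0.018. The 4 with the smallest adjusted p were Onecut2, Gata6, Creb3l3 and Nr1h4. Gata6, a zinc finger factor of endoderm, averaged 403 ± 74 in DEN_WT livers and 126 ± 20.5 in WT livers (SD, n = 3 each), a log2 fold change of 1.66. Creb3l3, a membrane-bound factor of fasting metabolism, averaged 4655 ± 650 in DEN_WT livers and 9947 ± 308 in WT livers (-1.10, and -0.73 under quantile normalization), and the bile acid receptor Nr1h4, or FXR, 1358 ± 456 in DEN_WT and 3540 ± 801 in WT livers (-1.42). The count of 11 was 6 when libraries were scaled to the same sum, and 7 without DEN_WT replicate 2 or without WT replicate 2.

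In DEN_KO against DEN_WT livers 8 of the 30 rose and 5 fell, with a median log2 fold change of 0.34, where 16.4% of all tested genes were called higher and 17.4% lower, with a median of -0.055. Creb3l3 averaged 13630 ± 3022 in DEN_KO livers and 4655 ± 650 in DEN_WT livers (log2 fold change 1.53). Nr1i3, or CAR, a receptor for foreign compounds, had 11516, 11454 and 13284 in DEN_KO livers, against 1374, 1008 and 1995 in DEN_WT livers (3.10 ± 0.38, adjusted p = 0.00013). Xbp1, a factor of the unfolded protein response, fell to 6675 ± 2342 in DEN_KO livers, against 18498 ± 3185 in DEN_WT livers (-1.52). The count of 5 was 2 without DEN_KO replicate 1 or DEN_WT replicate 2, and 3 without DEN_KO replicate 3. The DEN_WT libraries enter both comparisons, so their values are not independent of each other.

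Some markers of other liver cells also differed in the same comparisons. The shares of all tested genes to set beside their counts were 16.1% higher and 13.5% lower in DEN_WT against WT livers. In DEN_KO against DEN_WT livers they were 16.4% higher and 17.4% lower. The summed level of 8 markers of stellate cells, the collagen-making cells of the liver, was 3718 to 4571 in DEN_KO livers, 5187 to 8515 in DEN_WT livers, 3206 to 4266 in KO livers and 4387 to 4689 in WT livers, and no marker was at 0. Of the 8, 4 rose and 1 fell in DEN_WT against WT livers, and 5 fell in DEN_KO against DEN_WT livers. The collagen gene Col1a1 had a log2 fold change of 3.77 in DEN_WT against WT livers and of -2.27 in DEN_KO against DEN_WT livers, while Lrat, which stores vitamin A in stellate cells, passed the threshold in neither. The summed level of 8 endothelial markers, none of them at 0, was 5926 to 6472 in DEN_KO livers, 6055 to 6377 in DEN_WT livers, 4699 to 5147 in KO livers and 4471 to 5112 in WT livers. Of these 8, 4 rose in DEN_WT against WT livers and 2 fell in DEN_KO against DEN_WT livers, the latter near the share of all genes. Gata6 is also expressed outside hepatocytes, and the part of these cells in the changes of the 30 factors was not tested.

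Some of the genes known as targets of the members changed, in both directions. The target lists share genes with each other and with the other liver transcription factors above, so their counts are not separate results. Pck1, for example, is counted for both Cebpa and Cebpb, and Nr0b2 both as a factor and as an Nr5a2 target. The shares of all tested genes to set beside the counts were 16.1% higher and 13.5% lower in DEN_WT against WT livers, and 16.4% higher and 17.4% lower in DEN_KO against DEN_WT livers. Of 20 genes known to be controlled by Hnf4a, 4 rose and 5 fell in DEN_WT against WT livers (median -0.25), while Hnf4a itself had a log2 fold change of -0.28 (adjusted p = 0.35). The 4 of 20 that rose are near the share of all genes. Transferrin (Trf) averaged 53302 ± 5718 in DEN_WT livers and 8619 ± 880 in WT livers (2.63), and the apolipoproteins Apoa4 (4.07) and Apom (2.02) rose as well. Otc, a urea cycle enzyme, fell to 4794 ± 924 in DEN_WT livers, against 14344 ± 3532 in WT livers (-1.57). In DEN_KO against DEN_WT livers 10 of the 20 rose and 2 fell (median 0.80), with Hnf4a at 0.00. Transthyretin (Ttr) had 179066, 125224 and 115439 in DEN_KO livers, against 37286, 44929 and 49742 in DEN_WT livers (1.65 ± 0.32, adjusted p = 0.0017). Pyruvate kinase (Pklr, 1.62), Apoa2 (1.93) and coagulation factor F10 (1.03, and 0.63 under quantile normalization) also rose. The count of 2 was 5 after quantile normalization and 1 without DEN_KO replicate 1 or 3 or DEN_WT replicate 1.

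Of 10 genes known to be controlled by Cebpa, none rose and 3 fell in DEN_WT against WT livers, and 6 rose and 1 fell in DEN_KO against DEN_WT livers. Hepcidin (Hamp), the hormone that limits iron uptake, averaged 8366 ± 4078 in DEN_KO livers, 2649 ± 1446 in DEN_WT livers, 10378 ± 1102 in KO livers and 21156 ± 4735 in WT livers. Its log2 fold change was -3.11 ± 0.35 in DEN_WT against WT livers (adjusted p = 4.1e-05) and 1.69 ± 0.35 in DEN_KO against DEN_WT livers (adjusted p = 0.0029). Pck1, the first committed enzyme of gluconeogenesis, had 76389, 37959 and 69991 in DEN_KO livers, against 28132, 7106 and 15485 in DEN_WT livers (2.01). The count of 3 was 1 under quantile normalization, under scaling to the same sum, without DEN_WT replicate 2 and without WT replicate 1. The count of 6 was 3 under quantile normalization and without DEN_WT replicate 2 or 3, and 2 without DEN_KO replicate 1, and the 1 that fell was lost when any DEN_KO replicate or DEN_WT replicate 1 or 2 was left out.

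Of 9 tested genes known to answer to Cebpb, most of them acute phase genes, 3 rose in DEN_KO against DEN_WT livers and none fell. They were Pck1 and the orosomucoids Orm1 (2.50) and Orm2 (2.28). Orm1 had 9216, 11183 and 15199 in DEN_KO livers, against 6338, 465 and 2919 in DEN_WT livers, and its log2 fold change was 1.43 without DEN_WT replicate 2. The Orm2 call, of a near-identical copy whose reads may be shared with Orm1, was lost under 7 alternatives, among them that without DEN_WT replicate 2, where the log2 fold change was 1.15 (adjusted p = 0.14 by limma). The list's median was 0.10 in this comparison, and 2 rose in DEN_WT against WT livers, the acute phase genes Itih4 (0.95, and 1.65 under quantile normalization) and Hpx (0.99). The Hpx call was lost under 6 alternatives, among them those without DEN_WT replicate 1 or 3 or WT replicate 2 or 3, and the count of 2 was 4 without DEN_WT replicate 2.

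Of 10 genes known to be bound by Foxa proteins, 2 rose and 1 fell in DEN_WT against WT livers, and 5 rose and 2 fell in DEN_KO against DEN_WT livers. Igfbp1, a secreted binding protein for insulin-like growth factors, had 14331, 46712 and 29834 in DEN_WT livers, against 25, 111 and 208 in WT livers (8.32). The fetal gene Afp had 2417, 5067 and 2504 in DEN_WT livers, against 8, 26 and 16 in WT livers (7.61). The transferrin receptor Tfrc fell in DEN_KO against DEN_WT livers (-1.11). The 1 that fell in DEN_WT against WT livers, the urea cycle enzyme Cps1 (-1.11), was lost under quantile normalization (-0.42, adjusted p = 0.28 by limma), under scaling to the same sum (-0.89, adjusted p = 0.052 by limma), and without DEN_WT replicate 2 or WT replicate 1. The count of 5 was 2 without DEN_KO replicate 1 and 3 without DEN_WT replicate 2 or 3. It was also 3 under quantile normalization and in a fit of the 2 groups only. The count of 2 that fell was 1 without DEN_KO replicate 3 or DEN_WT replicate 2.

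Of 9 tested genes known to be controlled by Nr5a2, 2 rose and 4 fell in DEN_WT against WT livers, and 2 rose and 1 fell in DEN_KO against DEN_WT livers, where Nr5a2 was at -0.05. The high density lipoprotein receptor Scarb1 averaged 4459 ± 198 in DEN_KO livers, 7189 ± 381 in DEN_WT livers, 3964 ± 490 in KO livers and 3321 ± 183 in WT livers. It rose in DEN_WT against WT (1.11) and was lower in DEN_KO against DEN_WT (-0.69). The bile acid enzyme Cyp8b1 fell in DEN_WT against WT livers (-1.54) and was higher in DEN_KO against DEN_WT livers (1.44), as was the corepressor Nr0b2, or SHP (1.29). The steroid enzyme Cyp17a1 had 1755, 34 and 118 in DEN_WT livers, against 27, 6 and 4 in WT livers (4.29), with DEN_WT replicate 1 far above the others and a log2 fold change of 2.70 without it. The count of 4 was 1 without DEN_WT replicate 2 or WT replicate 2 and under scaling to the same sum, and 2 under quantile normalization.

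Of 10 genes known to be controlled by Onecut1, 1 rose and 4 fell in DEN_WT against WT livers, and 4 rose and 1 fell in DEN_KO against DEN_WT livers. Cyp7a1, the first enzyme of bile acid synthesis, was among those that fell (-1.89, adjusted p = 0.041), a call lost under 11 alternatives, with -1.15 without DEN_WT replicate 2. The count of 4 that fell was 1 under quantile normalization and under scaling to the same sum. It was 0 without DEN_WT replicate 2 and 2 without WT replicate 1 or 2. The count of 4 that rose was 2 without DEN_KO replicate 1 or DEN_WT replicate 2.

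On chromatin of DEN-treated livers most starts of the 9 genes lay at listed regions, as did most starts of all tested genes. An H3K4me3 region lay within 1000 bases of the annotated start of 9 of 9 in DEN_KO and 9 of 9 in DEN_WT livers, against 72.4% and 70.5% of all tested genes. A Smyd3 peak lay within 1000 bases of 7 of 9, against 64.2% of all tested genes, so this count is near the share of the whole table. The exceptions were Hnf4a and Nr5a2. The count used 1 annotated start per gene, and each of these genes has a further RefSeq start downstream that is taken up below. There is 1 list per group and the authors' score is 0 in every line, so positions and widths can be described and no difference between lists was tested.

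H3K4me3 regions at these starts were wide. The region at Foxa1 covered 10862 bases in DEN_KO and 9094 in DEN_WT livers, that at Prox1 9775 and 8006, and that at Onecut1 9275 and 6739. Those at Cebpa (6982 in DEN_KO, 6209 in DEN_WT), Foxa3 (5711 and 5503), Cebpb (5431 and 4619) and Foxa2 (4175 and 3623) came next. Each of these 7 was wider than at least 90.6% of the regions at tested starts of its list, where the median was 2038 bases in DEN_KO and 1807 in DEN_WT livers. The regions at the annotated starts of Nr5a2 (2817 in DEN_KO, 3540 in DEN_WT) and Hnf4a (1623 and 1703) were narrower.

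In 7 of the 9 genes the region was wider in the DEN_KO list, with a median log2 ratio of widths of 0.20. Over 11329 tested genes with a region in both lists the median was 0.15 and 67.4% were wider in DEN_KO. Onecut1 had the largest ratio of the 9 (0.46), just past the 75th percentile of all genes (0.44), and Cebpb had 0.23. The 8 H3K4me3 regions that held an annotated start in DEN_KO livers left out that of Hnf4a, whose region began 42 bases after it.

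The Smyd3 peaks at the starts were 1147 bases wide at Foxa1, 1410 at Prox1, 1887 at Foxa2, 3096 at Onecut1, 3123 at Cebpa and 3852 at Cebpb, where the median of the widest peak within 1000 bases of a tested start was 1008. At Foxa3 the peak that held the start was 879 bases wide (from -372 to 506 bases), and the 1175-base peak before it (from -1697 to -523) held the start of Sympk, a gene on the other strand. The peaks at Cebpb, Cebpa and Onecut1 were wider than at least 99.6% of those at tested starts, and that of Cebpb ran from -1310 to 2541 bases of the start, beyond the end of this short gene. The Cebpb peak also held the start of Tmem189 and the Prox1 peak that of Gm17566, both on the other strand. The H3K4me3 regions at Cebpb and Prox1 held these starts too. The same 7 genes had at least 2 Smyd3 peaks within 5000 bases of the start, as did 11.7% of tested genes. Prox1 had 4 and Foxa2 had 3. All of these were listed in DEN_WT livers, which were wild type for Smyd3.

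At Hnf4a, besides the narrow H3K4me3 region at the annotated start, further H3K4me3 regions ran from 30710 to 35425 and 39676 to 46420 bases after it in DEN_KO livers and from 30182 to 35358 and 39165 to 45151 in DEN_WT livers. The first of these holds the start of the antisense gene 0610008F07Rik. The second held the single Smyd3 peak of the locus, 40140 to 40858 bases after the annotated start (chr2:163372684-163373402 in mm9). The RefSeq table of another build puts the downstream start 40298 bases after the upstream one, and its 250 bases are the ones printed above with the GTTAAT matches. Nr5a2 had a second H3K4me3 region that ran from 10584 to 14952 bases after the start in DEN_KO livers and 10701 to 14890 in DEN_WT livers. Its Smyd3 peaks, 3 in number, lay between 7172 and 14321 bases, the first of them from 7172 to 7635. The same RefSeq table puts a second Nr5a2 start 6818 bases after the first, so at both genes a Smyd3 peak lay at or near a start that the count left out.

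**Figure D5:**
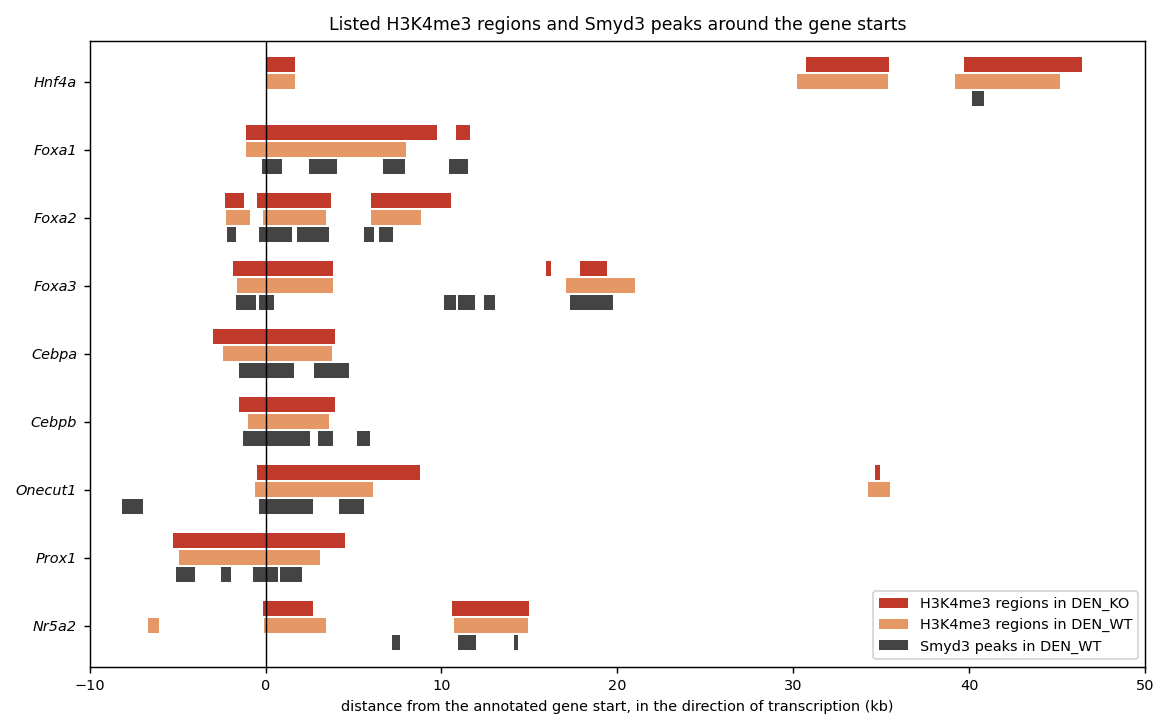
Listed H3K4me3 regions in DEN_KO and DEN_WT livers and Smyd3 peaks in DEN_WT livers (bars, to scale) by distance from the annotated start of each factor in the direction of transcription, in kb; negative is before the start. Smyd3 peaks lie at 7 of the 9 starts, and those of Hnf4a and Nr5a2 lie downstream, in or near a further H3K4me3 region.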

How the data were processed

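RNA was measured in 12 mouse liver libraries and chromatin in DEN-treated livers, with peak lists that stand for 2 replicates each. Per the labels' protocols, mRNA was fragmented with RNase III and sequenced on an Ion Proton. Build mm9 and the tools Bowtie2, Cufflinks, cutadapt, DESeq and TopHat2 2.0.9 are named per the submitters' processing notes. Not given in the sources used here are the peak caller, the counting tool, strandedness and annotation release. Each deposited RNA value is a score, a read count that the authors normalized and rounded. The bed score of the authors' lists is 0 in every line. The raw depth is not known, so no counting interval is given.

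Genes that reached a value of 10 in 3 or more libraries were fitted as log2(value + 1) in limma 3.58.1 (R 4.3.3), with 4 groups in 1 model, 8 residual degrees of freedom, a trend in the spread and Benjamini-Hochberg adjustment over 16471 genes at a threshold of 0.05. The log2(value + 1) scale understates changes of low genes. An exact test of 3 against 3 cannot go below p = 0.10. Where groups are said not to overlap, the share of all tested genes that did so was not counted. The script was tested on simulated data. The members, the gene lists and the tests were chosen with earlier results of these data known. By the rule for names, up to 4 called genes of a list with the smallest adjusted p per comparison may be named, and the 2 nearest profiles of each called member. A start is the gene end given by the table's mm9 coordinates and strand. Promoter letters come from RefSeq (GRCm38.p6) and were not converted between builds. RNA polymerase II and input libraries were not analysed here. The values of 1 gene that the lists count are not reported here.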

Additional observations from a re-analysis of the deposited data

Results flagged for a closer look

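The DEN effect on Cebpb differed between genotypes by 1.64 ± 0.45 on the log2 scale (adjusted p = 0.025 by limma's interaction term). The call held under 10 alternatives and was lost under 8. Cebpb averaged 2805 ± 549 in DEN_KO livers and 1229 ± 228 in KO livers, while it averaged 865 ± 469 in DEN_WT livers and 1113 ± 302 in WT livers (SD, n = 3 each). All 3 DEN_KO livers were above all 3 KO livers, and the DEN_WT range overlapped the WT range.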

How the results depend on the processing

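Besides leaving out each of the 12 libraries in turn, 7 other settings were tried. No sign was seen that the numbers of the labels pair the samples. Deviations of same-numbered livers from their group means correlated from -0.10 to 0.12, with 1 of 18 pairs over 0.1. Those of differently numbered livers ran from -0.15 to 0.13. With 3 livers in a group such a check cannot exclude pairing. With the replicate number as a block, 5288, 4602, 2180, 152 and 2463 genes were called (in the order DEN_KO against DEN_WT, DEN_WT against WT, DEN_KO against KO, KO against WT, interaction), against 5576, 4882, 2460, 191 and 2727 without it, and 1, 1, 1, 0 and 1 members in both fits. Leaving out a library gave 3960 to 6052, 3782 to 5353, 1119 to 2661, 62 to 555 and 1751 to 3075 genes, and 1 to 1, 0 to 2, 0 to 2, 0 to 0 and 0 to 2 members, in the same order. In KO against WT, 115 genes were called in a fit of the 2 groups only and 104 with no trend in the spread, and with no trend 0 members passed in the interaction.

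Scaling libraries to the same sum moved the median log2 fold change of all genes to 0.195 in DEN_WT against WT and to -0.179 in the interaction, and quantile normalization moved it to -0.108 in DEN_WT against WT. The share of called genes that were higher was then 74.3% (same sum) and 48% (quantile), against 54.5% as deposited, in DEN_WT against WT. Under the same sum it was 65.1% against 47.1% in KO against WT, 70% against 59.7% in DEN_KO against KO, and 38.1% against 52.7% in the interaction. Signs that turned belonged to members that had passed no threshold. Under quantile normalization these were Hnf4a (0.26) and Cebpa (0.32) in DEN_WT against WT, Cebpa in DEN_KO against DEN_WT (-0.09), and Foxa3 (-0.02) and Cebpa (-0.38) in the interaction. Under the same sum they were Foxa1 in KO against WT (0.03), and Foxa3 (-0.10) and Cebpa (0.00) in the interaction.

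The ranges over left-out libraries that crossed 0 were, in DEN_WT against WT, Foxa1 -0.56 to 0.09, Prox1 -0.22 to 0.23 and Nr5a2 -0.05 to 0.21; in DEN_KO against DEN_WT, Hnf4a -0.14 to 0.14, Foxa1 -0.63 to 0.02 and Nr5a2 -0.19 to 0.14; in KO against WT, Hnf4a -0.03 to 0.24, Foxa1 -0.41 to 0.11, Foxa3 -0.54 to 0.09 and Cebpb -0.08 to 0.31. They were, in DEN_KO against KO, Cebpa -0.20 to 0.16, Onecut1 -0.90 to 0.40 and Nr5a2 -0.27 to 0.06; and in the interaction, Hnf4a -0.27 to 0.02, Foxa1 -0.55 to 0.14, Foxa2 -0.26 to 0.16 and Foxa3 -0.33 to 0.30. The causes were not tested. The members with a region at the start stayed at 7, 9 and 9 with a window of 2500 bases and with only the regions wider than their list's median, and were 7, 8 and 9 (Smyd3, H3K4me3 in DEN_KO, H3K4me3 in DEN_WT) when the start had to lie inside. The settings of the gene lists were added after the data had been seen.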

Other observations

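Among the 9 factors, the profiles over the 12 livers that lay closest were those of Foxa1 and Foxa2, whose gene-centred log2 values differed by a root mean square of 0.264, and those of Hnf4a and Cebpa (0.291). The farthest were those of Cebpb and Onecut1 (1.47). Foxa3 lay farther from Foxa2 (0.659) and from Foxa1 (0.666) than those lay from each other. These distances describe 12 libraries in 4 groups and carry no test.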
